A study of Mus musculus with 10 samples.

Results

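Fc gamma receptors bind the constant part of IgG antibodies and let macrophages take up and respond to antibody-coated particles. The 8 genes described here are the mouse receptors Fcgr1, Fcgr2b, Fcgr3 and Fcgr4, the adaptors Fcer1g and Tyrobp, the kinase Syk and the exchange factor Vav1. They were chosen by gene symbol from a deposited table of 57010 gene identifiers, and all 8 passed the filter on low values that left 12455 genes to test. Their mRNA levels come from macrophages grown from bone marrow, of wild-type mice (WT) and of mice lacking WASp (WKO), a blood-cell regulator of branched actin assembly that is encoded by Was. Marrow flushed from the femur was differentiated for 7 days in RPMI medium with 20 ng/mL recombinant mouse M-CSF.

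The 10 libraries fall into 4 groups: 2 WT unconfined, 2 WKO unconfined, 3 WT confined and 3 WKO confined. Confined cells were held at a height of 3 µm for 1 h by silicone (PDMS) micropillars. The labels call the unconfined samples controls and do not describe how they were handled. An mRNA library kit was used on 5 ng of total RNA per sample, and each library is named here by its group and labelled replicate. The labels do not say which replicates came from separate mice or whether mice were pooled, so p-values measure only the spread between these samples, which may be technical. They also give no strain, age or targeted exon for the WASp knockout.

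The activating receptors FcγRI, FcγRIII and FcγRIV (Fcgr1, Fcgr3, Fcgr4) have no signalling motif of their own and pair with the common gamma chain, Fcer1g. When IgG crosslinks them, Src-family kinases phosphorylate the activation motifs of that chain, Syk docks on these and is activated, and Vav1 is among the proteins that then drive Rac and actin assembly in the phagocytic cup, where WASp also acts. FcγRIIB (Fcgr2b) binds IgG too but carries an inhibitory motif that recruits the lipid phosphatase SHIP and dampens the response, so the balance of activating receptors to Fcgr2b is widely used to describe how readily a macrophage responds to IgG. Tyrobp is a second adaptor of the same kind, used by other myeloid receptors such as those of the TREM family.

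Annotation of the GRCm38 build places Fcgr2b (chr1:170958617-170976547, minus strand), Fcgr4 (chr1:171018920-171029761, plus strand), Fcgr3 (chr1:171051174-171064935, minus strand) and Fcer1g (chr1:171229572-171234365, minus strand) on chromosome 1; the 3 receptor genes are adjacent and other genes lie between Fcgr3 and Fcer1g. Fcgr1 (chr3:96282909-96293969), Tyrobp (chr7:30413760-30417585), Syk (chr13:52583173-52648792) and Vav1 (chr17:57279100-57328031) lie elsewhere. The promoters of these 4 genes are shown because the 3 receptors differed between the genotypes and Fcer1g did not pass the test. Each is the 300 bases from 250 before to 50 after a RefSeq start site (GRCm38.p6), 5′ to 3′ on the gene's own strand: Fcgr2b at chr1:170976022-170976321 (minus), Fcgr3 at its first listed start site at chr1:171059354-171059653 (minus), Fcgr4 at chr1:171018676-171018975 (plus) and Fcer1g at chr1:171234300-171234599 (minus). Capitals mark GAGGAA or its reverse complement TTCCTC, the purine-rich core of many sites of the macrophage factor PU.1.
Fcgr2b: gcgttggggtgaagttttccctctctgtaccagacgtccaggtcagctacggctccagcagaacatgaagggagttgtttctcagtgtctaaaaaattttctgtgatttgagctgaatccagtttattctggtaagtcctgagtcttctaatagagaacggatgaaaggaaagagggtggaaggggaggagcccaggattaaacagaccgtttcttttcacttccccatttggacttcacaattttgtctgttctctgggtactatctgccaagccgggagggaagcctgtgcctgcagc
Fcgr3: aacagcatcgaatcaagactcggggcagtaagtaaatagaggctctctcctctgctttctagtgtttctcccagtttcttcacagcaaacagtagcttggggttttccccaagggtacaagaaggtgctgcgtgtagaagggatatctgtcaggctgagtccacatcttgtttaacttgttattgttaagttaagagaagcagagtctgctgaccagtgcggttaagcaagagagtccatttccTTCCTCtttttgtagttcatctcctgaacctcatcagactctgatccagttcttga
Fcgr4: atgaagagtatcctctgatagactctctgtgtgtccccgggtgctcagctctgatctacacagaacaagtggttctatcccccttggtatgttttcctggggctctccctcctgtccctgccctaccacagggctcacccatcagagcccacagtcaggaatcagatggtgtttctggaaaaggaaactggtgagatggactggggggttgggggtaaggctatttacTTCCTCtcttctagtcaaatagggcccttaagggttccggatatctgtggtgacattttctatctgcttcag
Fcer1g: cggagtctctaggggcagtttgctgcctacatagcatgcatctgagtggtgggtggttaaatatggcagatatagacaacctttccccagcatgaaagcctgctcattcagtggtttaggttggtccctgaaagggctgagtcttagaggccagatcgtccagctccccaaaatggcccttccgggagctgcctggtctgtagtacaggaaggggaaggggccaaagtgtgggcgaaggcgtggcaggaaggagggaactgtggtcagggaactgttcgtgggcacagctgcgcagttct

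These letters were searched on both strands in the promoters of the 7 members that the RefSeq table holds. As TTCCTC they begin 6 bases before the start site of Fcgr3, 22 before that of Fcgr4 and 55 before that of Fcgr1, and as GAGGAA 11 bases before that of Vav1. Syk holds a match, 9 bases before its start, only at the second of its 2 listed start sites. The windows of Fcgr2b and Fcer1g hold none, which says only that these letters are not there. The same letters occur in 28.3% of 27025 mouse promoters of this length, so a match is a description of the sequence.

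Whole reads could be recovered from every deposited value, with totals of 13295701 to 19329908 reads per library. Each member had at least 1066 reads in each library, far above a detection floor of 3 reads, which corresponds to a normalized read count of 2.35 to 3.59 and covers counting error only. Was averaged 1474 ± 234 (SD, n = 2) and 1612 ± 40.1 (n = 3) normalized read counts in unconfined and confined WT, and 148 ± 8.82 (n = 2) and 107 ± 15.5 (n = 3) in the same conditions in WKO, so each library matched its genotype label at this gene. All 12 macrophage markers (such as Adgre1, Csf1r and Lyz2) were detected in each group. The WKO confined library of replicate 5 stood apart: the chi-square per degree of freedom against its 2 group mates was 78.3 and 46.1, while the other replicate pairs gave 7.56 to 32.6. Results that rest on it are given with and without it.

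Per kb of exon, the order of levels in unconfined WT macrophages was Tyrobp, Fcer1g, Fcgr3, Fcgr4, Fcgr1, Syk, Vav1 and Fcgr2b. The adaptor Tyrobp stood at a normalized read count of 9896 ± 2770 per kb (SD, n = 2), Fcer1g at 5695 ± 749 and the receptor Fcgr3 at 4077 ± 768. Fcgr4 (1150 ± 152) and Fcgr1 (1061 ± 92.1) overlapped, as did Syk (738 ± 23.2) and Vav1 (686 ± 101). The inhibitory receptor Fcgr2b was lowest, at 276 ± 19.5 per kb. Even so it lay at the 80.7th percentile of 12315 tested genes with a known length, and Tyrobp at the 99.7th.

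**Figure D1:**
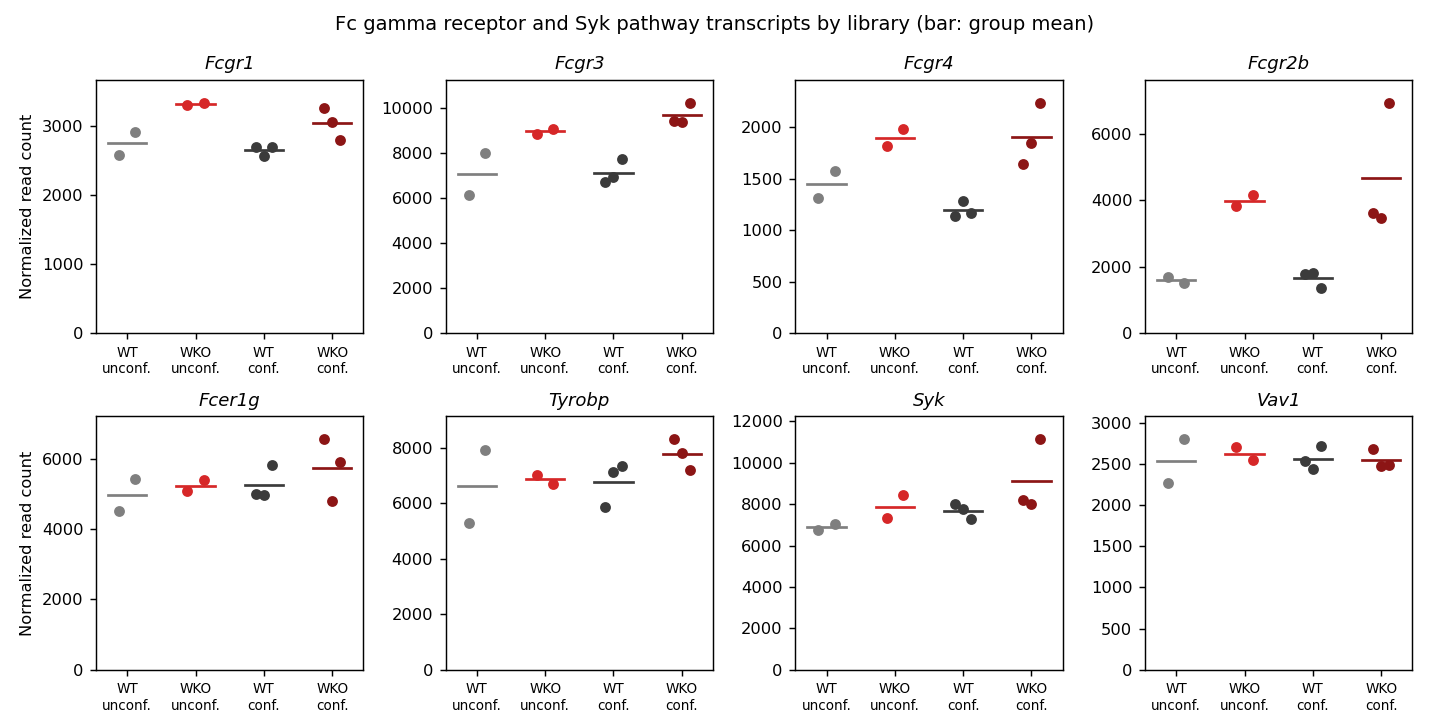
Normalized read count (vertical axis, from 0) of each of the 8 genes in each of the 10 libraries, by group; points are libraries and bars are group means. All 5 WKO libraries lie above all 5 WT libraries for Fcgr2b, Fcgr3 and Fcgr4, and the WKO confined library of replicate 5 is the highest point for each of these.

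Fcgr2b, the inhibitory receptor, differed most between the genotypes. Its normalized read counts were 1676 and 1516 in unconfined WT, 3822 and 4163 in unconfined WKO, 1795, 1815 and 1365 in confined WT, and 3624, 3476 and 6947 in confined WKO. The lowest WKO library (3476) was well above the highest WT library (1815), and replicate 5 of the confined WKO libraries stood far above the other WKO libraries. Averaged over both conditions, Fcgr2b was 2.60-fold higher in WKO, a log2 fold change of 1.38 (SE 0.176, 95% confidence interval 0.99 to 1.76), with an adjusted p of 0.00150 by limma. It was called higher in WKO in the confined cells (log2 fold change 1.43, SE 0.222, adjusted p = 0.0101). In the unconfined cells, with 2 libraries a genotype, a difference of similar size (1.32, SE 0.272) had an adjusted p of 0.0920 by limma.

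Leaving out replicate 5 of the confined WKO libraries lowered the confined log2 fold change of Fcgr2b to 1.11 (adjusted p = 6.47e-04) and the mean of both conditions to 1.22 (adjusted p = 1.52e-05). The unconfined estimate does not use that library and stayed at 1.32, but its p-value uses a spread estimated from all 4 groups. Without that library the unconfined difference passed (adjusted p = 5.08e-04 by limma). It also passed with only the 2 unconfined groups in the fit (adjusted p = 8.65e-04 by limma). The mean over both conditions passed in all 21 alternatives that could be fitted, with log2 fold changes from 1.14 to 1.47.

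The activating receptors Fcgr3 and Fcgr4 were also higher in WKO, by smaller amounts. Fcgr3, the low-affinity activating receptor, stood at 6135 and 8021 normalized read counts in unconfined WT, 8861 and 9092 in unconfined WKO, 6713, 6927 and 7761 in confined WT, and 9462, 9388 and 10253 in confined WKO. No WT library reached the lowest WKO library, although WT unconfined replicate 3 (8021) came close to it (8861). The log2 fold change over both conditions was 0.40 (SE 0.0883, adjusted p = 0.0233 by limma), with 0.36 in unconfined cells (adjusted p = 0.424) and 0.45 in confined cells (adjusted p = 0.0617). The call over both conditions was lost without any 1 of 5 libraries, with adjusted p values of 0.103 (WT unconfined 1), 0.0865 (WKO unconfined 1), 0.121 (WKO unconfined 3), 0.0645 (WT confined 2) and 0.0615 (WT confined 3). In the confined cells alone it was gained without WT unconfined 1 (0.0390), WT unconfined 3 (0.0387) or WKO confined 1 (0.0487). Without WKO confined 5, in which Fcgr3 was highest, the log2 fold change was 0.38 over both conditions (adjusted p = 0.0179) and 0.40 in confined cells (adjusted p = 0.0900).

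Fcgr4, a receptor of IgG subclasses that is found on myeloid cells, stood at 1309 and 1579 in unconfined WT, 1815 and 1982 in unconfined WKO, 1142, 1286 and 1167 in confined WT, and 1641, 1850 and 2238 in confined WKO. The genotypes did not overlap, and the gap was narrow: the highest WT library was at 1579 and the lowest WKO library at 1641. The log2 fold change was 0.53 over both conditions (SE 0.102, adjusted p = 0.0125 by limma), 0.66 in confined cells (SE 0.129, adjusted p = 0.0218) and 0.40 in unconfined cells (adjusted p = 0.437). The confined call was lost without any 1 of the 3 confined WT libraries, with adjusted p values of 0.0972 (replicate 2), 0.0689 (replicate 3) and 0.0789 (replicate 6). The call over both conditions was lost without WT unconfined 1 (0.0712) or WKO unconfined 3 (0.0833). Without WKO confined replicate 5 both calls held, at log2 fold changes of 0.54 and 0.47.

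Fcgr1, the high-affinity receptor, did not pass. It stood at 2577 and 2915 in unconfined WT, 3301 and 3333 in unconfined WKO, 2700, 2559 and 2695 in confined WT, and 3257, 3055 and 2793 in confined WKO. Within each condition the genotypes did not overlap, but WKO confined replicate 5 (2793) lay below WT unconfined replicate 3 (2915). The log2 fold change over both conditions was 0.23 (SE 0.0756), with an adjusted p of 0.0993 by limma, and of 0.0429 without WKO confined replicate 5, the library in which the other receptors were highest.

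**Figure D2:**
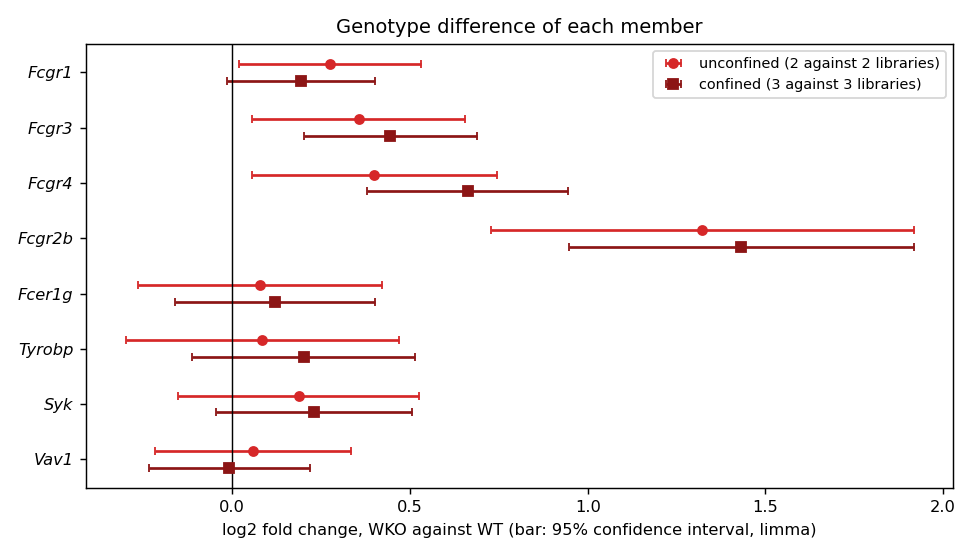
Log2 fold change of WKO against WT (horizontal axis) for each gene in unconfined cells (circles, 2 against 2 libraries) and confined cells (squares, 3 against 3 libraries), with 95% confidence intervals from limma. Fcgr2b lies at 1.32 and 1.43, apart from the other 7 genes, and the intervals of Fcer1g, Tyrobp, Syk and Vav1 include 0 in both conditions.

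The adaptors did not pass in any comparison. Fcer1g, which the activating receptors need for their surface expression, stood at 4515 and 5440 in unconfined WT, 5077 and 5398 in unconfined WKO, 5002, 4967 and 5818 in confined WT, and 6552, 4789 and 5914 in confined WKO. The genotypes overlapped, with 2 of 5 WKO libraries above the highest WT library. Its log2 fold change over both conditions was 0.10 (95% confidence interval -0.12 to 0.32, adjusted p = 0.646 by limma). Tyrobp ranged from 5294 through a median of 7127 to 7907 in WT and from 6693 through 7178 to 8291 in WKO, with a log2 fold change of 0.14 (-0.11 to 0.39, adjusted p = 0.533).

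Syk, the kinase, stood at 6751 and 7058 in unconfined WT, 7312 and 8446 in unconfined WKO, 7998, 7786 and 7298 in confined WT, and 8225, 8010 and 11130 in confined WKO. The highest value was again that of WKO confined replicate 5, and 4 of 5 WKO libraries were above the highest WT library. Its log2 fold change over both conditions was 0.21 (-0.01 to 0.43, adjusted p = 0.271 by limma), and 0.13 without that replicate. Vav1, which turns on Rac and is the final member of this chain, ranged from 2269 to 2795 in WT and from 2478 to 2701 in WKO. Its log2 fold change was 0.02 (-0.15 to 0.20, adjusted p = 0.916), so a change of either sign larger than 0.20 lies outside the interval.

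The members were chosen with earlier results of these data known, so the following counts and shares are a description. In counts, 3 of 8 members were called higher in WKO over both conditions and none lower, while 5.57% of all genes tested were called in either direction and 2.90% as higher. In the confined cells 2 of 8 were called, against 2.59% of all genes. In the unconfined cells limma called 0 of 8, against 0.145%. There 4 of 8 members had an unadjusted p under 0.05, against 9.60% of all genes, edgeR called 0 of 8, against 0.120%, and DESeq2 called 1, Fcgr2b, against 1.44%. All 5 WKO libraries were above all 5 WT libraries for 3 of the 8 members and for 3.38% of all genes. Within a condition this held for 5 of 8 members (Fcgr1, Fcgr2b, Fcgr3, Fcgr4 and Syk), against 22.2% of all genes in unconfined and 10.7% in confined cells. The median log2 fold change of the 8 over both conditions was 0.22, and that of all genes tested 0.003. The count of 3 became 1 without WT unconfined 1 or WKO unconfined 3, the count of 2 in confined cells became 1 without any 1 confined WT library, and the count of 0 in unconfined cells became 1 without WKO confined 5.

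The activating receptors and Fcgr2b did not move in proportion. Per kb of exon, the sum of Fcgr1, Fcgr3 and Fcgr4 over Fcgr2b was 19.3 and 26.7 in unconfined WT, 18.8, 19.1 and 27.3 in confined WT, 11.9 and 11.3 in unconfined WKO, and 12.8, 13.4 and 7.31 in confined WKO. The lowest WT ratio (18.8) was above the highest WKO ratio (13.4). The group means were 23.0 ± 5.30 (SD, n = 2) and 21.7 ± 4.83 (n = 3) in unconfined and confined WT, and 11.6 ± 0.414 (n = 2) and 11.2 ± 3.37 (n = 3) in WKO. Fcgr3 over Fcgr2b was 12.2 to 19.0 in WT and 4.92 to 9.01 in WKO, Fcgr4 over Fcgr2b 2.93 to 4.80 and 1.49 to 2.45, and Fcgr1 over Fcgr2b 3.15 to 4.42 and 0.899 to 2.01. These ratios are computed within a library and do not depend on scaling between libraries. Their absolute size depends on the exon length used, which was the same in every library. That length is 5790 bases for Fcgr2b, whose longest transcript has 3544, and 1736 for Fcgr3, whose longest has 1347. For Fcgr1 and Fcgr4 both lengths are equal. The ratios are of mRNA, and they do not measure receptor protein at the surface. They follow from the values above and were given no test of their own.

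**Figure D3:**
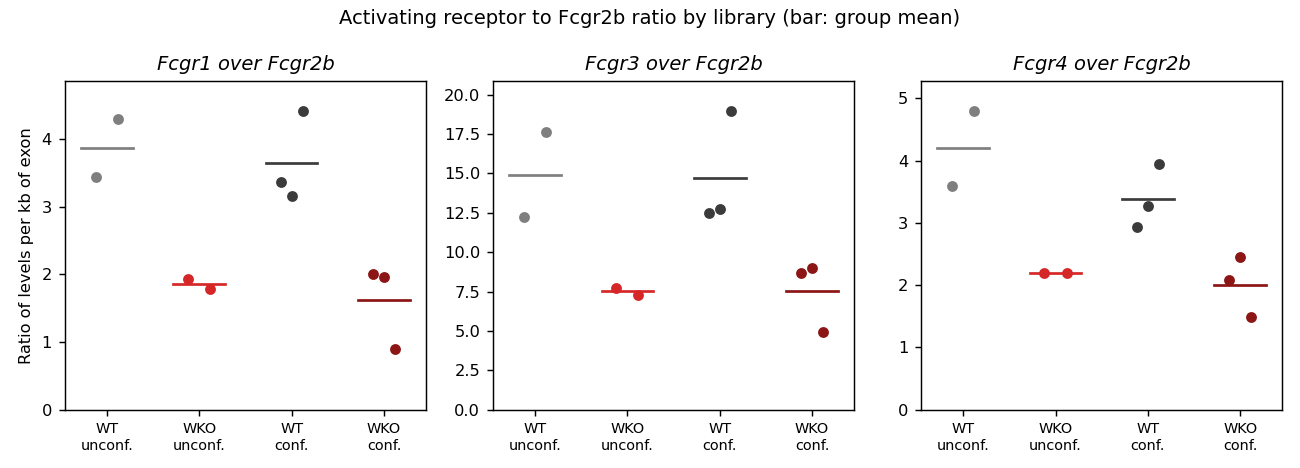
Ratio of the level per kb of exon of Fcgr1, Fcgr3 or Fcgr4 to that of Fcgr2b (vertical axis, from 0) in each library, by group; bars are group means. In all 3 plots the WT libraries lie above the WKO libraries, and WKO confined replicate 5 is lowest, at 0.899, 4.92 and 1.49.

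Against their shared adaptor the receptors separated less. The sum of Fcgr1, Fcgr3 and Fcgr4 per kb over Fcer1g was 1.08 and 1.13 in unconfined WT, 1.02, 1.06 and 0.968 in confined WT, 1.35 and 1.31 in unconfined WKO, and 1.07, 1.47 and 1.30 in confined WKO. Only WKO confined replicate 1, with the highest Fcer1g of all libraries, fell within the WT range.

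How reads were divided between Fcgr2b and Fcgr3 is uncertain. The longest annotated transcripts of Fcgr2b and Fcgr3 share a stretch of 512 and 509 bases at 96.3% and 96.5% identity, which is 14.5% of the Fcgr2b and 37.8% of the Fcgr3 transcript, and reads in it can be split or dropped by the counting step. The other members share no stretch of at least 100 bases at 95% identity with another gene. An exon of Fcgr2b also overlaps Gm38204 by 155 bases, and the use of strand in counting is not given in the sources used here.

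Markers of other cells moved with the genotype, and in bulk RNA fewer cells of a type and less RNA per cell cannot be told apart. The summed normalized read count of 14 neutrophil and progenitor markers was 3307 to 12571 in the WT libraries, 28897 and 34554 in unconfined WKO, and 9608 to 32083 in confined WKO, and 9 of the 14 were called higher in WKO over both conditions. Within WKO, replicate 5 of the confined group had the lowest sum, 9608, which is inside the WT range, and the highest Fcgr2b, Fcgr3 and Fcgr4. That library had the highest sum of 12 stromal markers, 10623, against 195 to 1878 in WT and 881 to 3500 in the other WKO libraries. Of the 11 stromal markers tested, 4 were called higher in WKO over both conditions and 0 lower, with a median log2 fold change of 2.16. In the confined cells 7 were called higher. The sum of the 12 macrophage markers was 225807 to 254351 in WT and 296102 to 370732 in WKO, again highest in WKO confined replicate 5. Much of it was Lyz2, at 100507 to 132963 in WT and 157886 to 200203 in WKO. Over both conditions 6 of 12 were called higher and none lower. Their median log2 fold change was 0.29, beside 0.40 for Fcgr3, 0.53 for Fcgr4 and 1.38 for Fcgr2b. The 12 did not move alike. Mertk was at 1438 to 1896 in WT and 3333 to 3948 in WKO. In unconfined cells Cd14 (3723 and 4786 in WT, 2885 and 3189 in WKO) and Itgam (2459 and 2830, 2149 and 2299) were lower in WKO, and neither was called. The part of these markers in the receptor differences was not tested.

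B cells are another source of Fcgr2b, and their 9 markers summed to 27.3 to 214 in WT and 97.1 to 195 in WKO, with Igll1 at 0 throughout. The 4 that were tested had a median log2 fold change of 0.56 between the genotypes over both conditions. Their part in the Fcgr2b difference was not tested. Natural killer and T cell markers (10) summed to at most 34.5 in a library, with Ncr1 and Eomes at 0 in each group. Mast cell and basophil markers (9) summed to 85.1 to 294, with Mcpt4 and Tpsb2 at 0, and dendritic cell markers (8) to 972 to 1496, most of it Bst2, with Xcr1 at 0. The 5 dendritic cell markers that were tested had a median log2 fold change of 1.04 between the genotypes over both conditions, with 0 called. For the 3 tested mast cell and basophil markers the median was 0.16, with 1 called higher. The part of these cells in the receptor differences was not tested.

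Confinement for 1 h changed none of the 8 genes past the threshold. In WT, limma called 0 of 8 members, against 1.16% of all genes, and in WKO 0 of 8, against 1.72%. Averaged over the genotypes it called 0 of 8, against 6.21% of all genes. In these 3 comparisons no member had an unadjusted p under 0.05, against 12.2%, 14.1% and 21.6% of all genes. Here edgeR and DESeq2 called 0 members as well. Of all 12455 genes edgeR called 116, 186 and 784 in these comparisons, and DESeq2 called 333, 486 and 1219. The 95% confidence intervals of the 8 log2 fold changes averaged over the genotypes lay between -0.36 and 0.48, the lower bound being that of Fcgr4 and the upper that of Fcgr2b. Fcgr4 had the lowest of these changes in WT: all 3 confined WT libraries (1142 to 1286) were below both unconfined ones (1309 and 1579), with a log2 fold change of -0.26 (adjusted p = 0.507 by limma). In WKO the Fcgr4 values of confined cells (1641 to 2238) spanned those of unconfined cells. For Syk all 3 confined WT libraries (7298 to 7998) were above both unconfined ones (6751 and 7058), with a log2 fold change of 0.16 (adjusted p = 0.715 by limma). In WKO the confined libraries were all above the unconfined ones for Fcgr3 (9388 to 10253 against 8861 and 9092) and Tyrobp (7178 to 8291 against 6693 and 7028), and all below them for Fcgr1 (2793 to 3257 against 3301 and 3333). With 2 libraries against 3 such separation was common: it held for 2 of 8 members in WT, against 35.9% of all genes, and for 3 of 8 in WKO, against 28.3%.

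Whether the genotype difference itself changed with confinement was tested as an interaction. For the members 0 of 8 were called, with 0 at an unadjusted p under 0.05, and 0 by edgeR and by DESeq2. Of all genes limma, edgeR and DESeq2 each called 0%, and 2.07% had an unadjusted p under 0.05 by limma. The interaction estimate was 0.11 for Fcgr2b (95% confidence interval -0.66 to 0.88) and 0.26 for Fcgr4 (-0.18 to 0.71). Increases as large as the genotype effects of Fcgr3 (0.40) and Fcgr4 (0.53) lie within both intervals. Decreases of that size lie within the interval of Fcgr2b but outside that of Fcgr4. Without WKO confined replicate 5 the estimate for Fcgr2b changed sign, to -0.21, and that for Fcgr4 was 0.14. Neither passed. The unconfined and confined estimates come from different libraries, but their p-values share an estimate of spread from all 4 groups and are not independent. The mean over conditions uses both and is not independent of either.

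The chromosome 1 cluster was compared with its surroundings, a choice made after the members' values were seen. Of 39 protein-coding genes with start sites from 500 kb before Fcgr2b to 500 kb after Fcer1g, 26 besides the members were tested. Over both conditions 1 of these was called higher in WKO, Olfml2b (log2 fold change 0.82, adjusted p = 0.0151 by limma), and 1 lower, Pcp4l1 (-0.67, adjusted p = 0.00243), which lies between Fcgr3 and Fcer1g. Of all genes tested 5.57% were called in either direction. The median log2 fold change of the 26 was 0.06 and 16 of 26 were above 0, against 0.003 and 50.7% for all genes tested. Olfml2b lost its call without WT unconfined 1 or WKO unconfined 1 (adjusted p of at most 0.0840), and Pcp4l1 kept it without any 1 library. The nearest tested neighbours on either side of the 3 called receptors, Dusp12 (-0.16, adjusted p = 0.664) and Cfap126 (0.73, adjusted p = 0.316), did not pass.

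**Figure D4:**
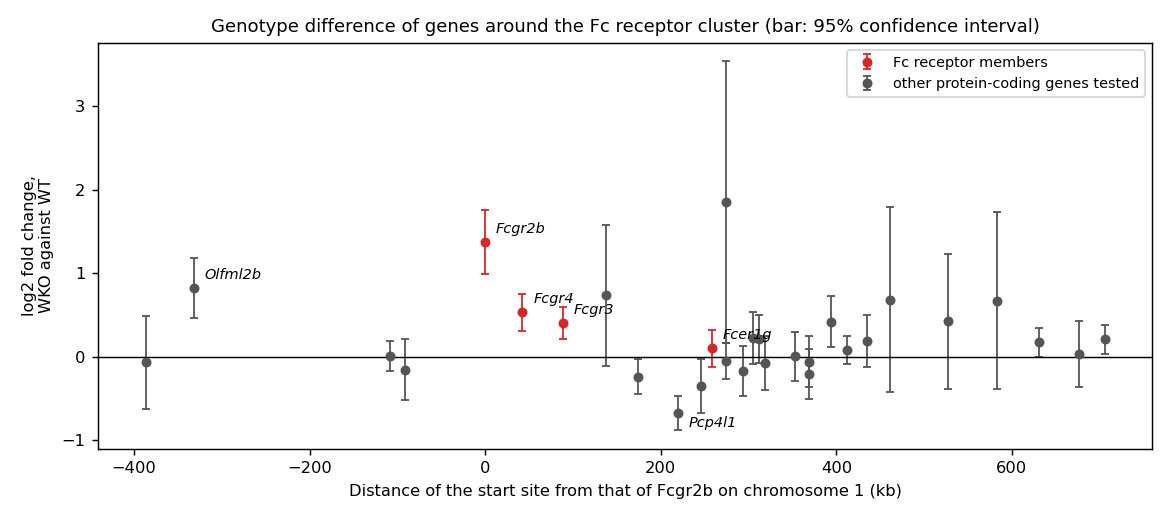
Log2 fold change of WKO against WT over both conditions (vertical axis, with 95% confidence intervals from limma) by distance of the start site from that of Fcgr2b (horizontal axis, kb). Fcgr2b, Fcgr4 and Fcgr3 (red) lie at 1.38, 0.53 and 0.40, Fcer1g (red) at 0.10, and most neighbours (grey) have intervals that include 0.

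Other genes of the pathway were read from 4 lists of 97 genes, 82 of which were tested. The lists were drawn up with earlier results of these data known. A share called above that of all genes can follow from this choice and is given as a description. Over both conditions 7 were called higher and 6 lower in WKO, 15.9% against the 5.57% of all genes, and their median log2 fold change was 0.02. Of 13 other Fc receptors only 4 were tested, and 2 were called higher. Fcgrt, the neonatal receptor that recycles IgG, stood at 1160 to 1440 normalized read counts in the WT and 2064 to 3118 in the WKO libraries, with no overlap (log2 fold change 0.98, SE 0.116, adjusted p = 0.00111 by limma). Fcrls, a relative of the Fc receptors that marks some macrophages, stood at 620 to 872 in WT and 990 to 1752 in WKO (0.71, SE 0.120, adjusted p = 0.00617). Both kept the call without any 1 library. Fcrl1 had 0.58 (adjusted p = 0.0838) and Trim21, the cytosolic antibody receptor, -0.05 (adjusted p = 0.916).

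Of 17 other receptors that signal through Fcer1g or Tyrobp, 15 were tested, with 2 called higher, 1 lower and a median of 0.32. Trem1, an amplifier of inflammatory signals, had a log2 fold change of 1.32 (adjusted p = 0.0421 by limma) at low levels, 22.8 to 93.8 in WT and 48.5 to 202 in WKO, where the genotypes overlapped. Sirpb1a (1.75, adjusted p = 0.0424) stood at 3.21 to 9.50 in WT and 11.4 to 40.7 in WKO, but shares 98.9% of its transcript with Sirpb1b and Sirpb1c and is uncertain. Clec5a, a Tyrobp-coupled lectin, was lower (-0.49, adjusted p = 0.0466). These 3 calls were weak: Trem1 kept it in 2 of 10 fits that leave out 1 library, Sirpb1a in 1 and Clec5a in 3, with adjusted p values of up to 0.172, 0.176 and 0.229. Without WKO confined 5 the adjusted p of Sirpb1a was 0.0644.

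The kinases, adaptors and effectors around Syk held 36 tested genes of 38, of which 0 were called higher and 3 lower, with a median of -0.05. Lat, a membrane adaptor that Syk-family kinases phosphorylate, was at 188 to 223 normalized read counts in WT and 25.2 to 96.5 in WKO, and fell by 2.13 on the log2 scale (SE 0.295, adjusted p = 0.00226 by limma). Lat2, its relative in myeloid and B cells, fell by 0.52 (adjusted p = 0.00633), from a mean of 5138 to 3581, but 952 of its exon bases overlap Rfc2 and its reads are uncertain. Pik3cb, a catalytic subunit of phosphoinositide kinase that shares 8.15% of its transcript with pseudogenes, fell by 0.53 (adjusted p = 0.00621), from 1956 to 1374. Lat and Lat2 kept these calls without any 1 library, and Pik3cb lost its call without WKO unconfined 3 (adjusted p = 0.0510). The other 33 tested genes of this list, which include the Src-family kinases, did not pass.

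Inhibitory receptors and negative regulators held 27 tested genes of 29, with 3 called higher, 2 lower and a median of 0.11, so that the list Fcgr2b belongs to by function was split. Higher were Pecam1 (log2 fold change 1.06, adjusted p = 0.0439 by limma), Cd33 (0.75, adjusted p = 0.0319) and the adaptor Pag1 (0.51, adjusted p = 0.0452; outside the naming rule and added after its values were seen). Lower were the ubiquitin ligase Cblb (-0.65, adjusted p = 0.0157) and the phosphatase Ubash3b (-0.44, adjusted p = 0.0215). Each of these 5 calls was lost without some libraries: of 10 fits that leave out 1, Cblb kept it in 7, Ubash3b in 5, Pag1 in 3 and Pecam1 and Cd33 in 2 each.

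**Figure D5:**
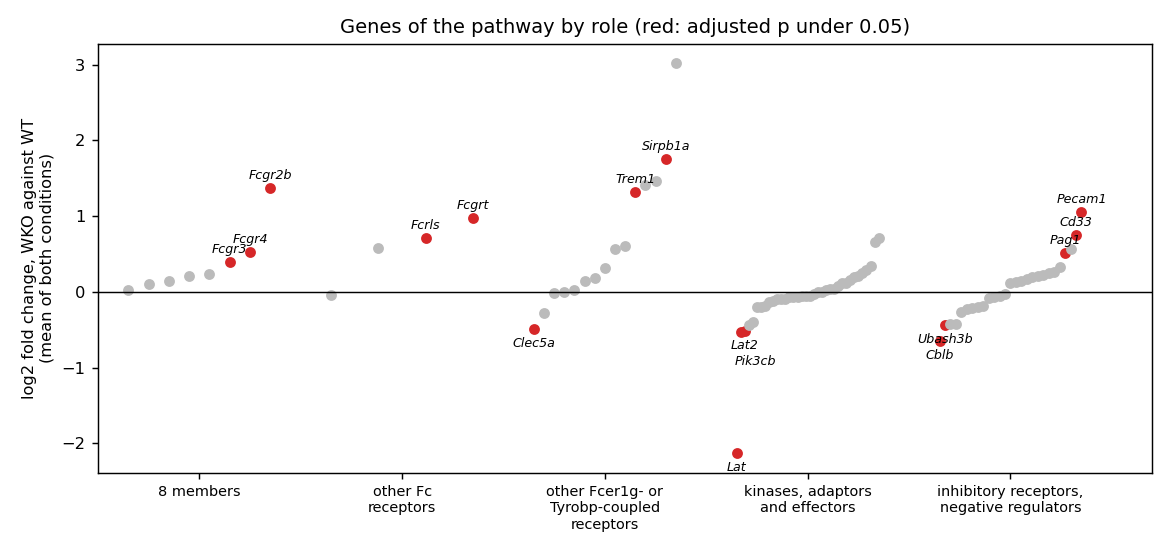
Log2 fold change of WKO against WT over both conditions (vertical axis) for the 8 genes and for the tested genes of each of 4 lists, sorted within a list; red points have an adjusted p under 0.05 by limma and are named. Of the 82 listed genes beside the members, 7 red points lie above 0 and 6 below.

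In the confined cells alone 4 of the 82 were called higher in WKO (Fcgrt, Fcrls, Sirpb1a, Pecam1) and 3 lower (Lat, Lat2, Ubash3b), 8.54% against the 2.59% of all genes. Of 10 fits that leave out 1 library, Fcgrt kept this call in 10, Fcrls, Lat and Pecam1 in 7, Lat2 in 6 and Sirpb1a and Ubash3b in 1. Without WKO confined 5 the adjusted p was 0.116 for Sirpb1a and 0.0736 for Ubash3b. This count of 7 became 1 without WT confined 2 or 3, 2 without WT confined 6, 3 without WKO confined 2, 11 without WKO confined 1 and 14 without WKO confined 5. In the unconfined cells limma called 0 of 82 (2 without WKO confined 1, 3 without WKO confined 5), with 16 at an unadjusted p under 0.05, against 9.60% of all genes. Here edgeR called 0 of 82, against 0.120%, and DESeq2 called 3, against 1.44%. The interaction gave 0 of 82 by limma, edgeR and DESeq2, with 3 at an unadjusted p under 0.05. Leaving out 1 library at a time moved the count over both conditions from 13 to between 4 (without WKO unconfined 3) and 23 (without WKO confined 5), and 6 other libraries also moved it by more than 1.5 times, to 5 (WT unconfined 1), 6 (WKO unconfined 1, WT confined 2) or 7 (WT unconfined 3, WT confined 6, WKO confined 2).

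Among the 82 listed genes, confinement calls were about as frequent as among all genes: 1.22% against 1.16% in WT, 2.44% against 1.72% in WKO and 8.54% against 6.21% over both genotypes. Clec4e, the lectin Mincle, which signals through Fcer1g and Syk, rose from 79.8 and 80.6 to 658, 973 and 775 in WT (log2 fold change 3.29, SE 0.574, adjusted p = 0.0190 by limma). In WKO it rose from 108 and 86.7 to 704, 476 and 3198 (3.39, SE 0.574, adjusted p = 0.0123), with replicate 5 far above the rest and a log2 fold change of 2.57 without it (adjusted p = 6.78e-05). The rise averaged over the genotypes was 3.34 (adjusted p = 6.73e-04) and held without any 1 library, while the rise in WT was lost without any 1 WT library and that in WKO without either unconfined WKO library, with adjusted p values of up to 0.160 and 0.137. Malt1, a protease downstream of Syk, rose by 1.08 over both genotypes (adjusted p = 0.00513), also without any 1 library, and Pik3r1, a regulatory subunit of phosphoinositide kinase, by 0.98 (adjusted p = 0.0218).

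Over both genotypes the Src-family kinase Fgr fell by 0.89 (adjusted p = 0.0367 by limma), Pik3cd by 0.30 (adjusted p = 0.0377; outside the naming rule and added after its values were seen), and the negative regulators Dok1 and Sla fell by 0.57 (adjusted p = 0.0158) and 0.59 (adjusted p = 0.00883). Of 10 fits that leave out 1 library, Sla kept its call in 9, Dok1 in 8, Pik3r1 in 4 and Fgr and Pik3cd in 2 each. In all, 3 of the 82 listed genes were called higher and 4 lower with confinement over both genotypes. This count of 7 became 2 without WKO unconfined 1, 3 without WT unconfined 3, 4 without WT unconfined 1, WKO unconfined 3, WT confined 2 or WT confined 6, and 17 without WKO confined 1. None of the 8 members was among the genes so called.

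The genes whose pattern was most like that of a member were found by Pearson correlation over the 10 libraries, which share the genotype split and replicate 5 of the confined WKO group; no test was made. For Fcgr2b these were Selenop, which encodes a selenium carrier (r = 0.980), Nbr1 (0.977) and Ly86 (0.976), the partner of a Toll-like receptor relative. Ly86 stood at 702 to 897 normalized read counts in WT and 1408 to 1818 in WKO. For Fcgr4 they were Pdgfc (0.974), Vsir (0.960) and the cathepsin Ctsh (0.959), and for Fcgr1 Bin2 (0.965), Blvra (0.957) and Urm1 (0.951). For Fcgr3 they were Myom1 (0.958), Tgfb3 (0.956) and Csmd1 (0.954), all at low levels in WT. Myom1 stood there at 14.2 to 28.9, Tgfb3 at 10.4 to 28.8 and Csmd1 at 0 to 9.60. In confined WT Csmd1 was at 0 to 2.41, around the detection floor. The genes most like Syk were Gbp5 (0.967), Mtmr14 (0.961) and Tifa (0.953), and those most like Fcer1g Morrbid (0.947), Tspan3 (0.934) and Zfp651 (0.919). Tyrobp was nearest to D8Ertd738e (0.940), Gtpbp1 (0.940) and Rps28 (0.926), and Vav1 to Gm14305 (0.933), Limd2 (0.914) and Mcfd2 (0.882). Exons of 11 of these genes overlap other annotated genes (Selenop, Pdgfc, Myom1, Tgfb3, Tifa, Morrbid, Zfp651, Gtpbp1, Rps28, Gm14305 and Limd2), and the whole transcript of Gm14305 is shared with other genes at 95% identity or more, so their reads are uncertain.

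Among the members themselves, Fcgr2b and Fcgr4 were most alike over the 10 libraries (r = 0.899), followed by Fcgr3 and Fcgr4 (0.862) and by Fcgr2b and Fcgr3 (0.828). After each group's mean was subtracted, Fcgr2b and Fcgr4 stood at 0.66 and Fcgr2b and Fcgr3 at 0.01, while Fcgr2b and Syk stood at 0.93, a value to which replicate 5 of the confined WKO libraries, highest for both genes, contributes.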

How the data were processed

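RNA sequencing of 10 libraries in 4 groups was described in 1 table; no library was left out, and groups and replicate numbers came from the sample titles. The table the authors deposited holds a signal, the normalized read count, for 57010 identifiers in each library, 33419 of them at 0 throughout. FastQC, Trim Galore, STAR and the build GRCm38 (mm10) are named per the submitters' processing notes; the counting tool, its annotation, the use of strand and the normalization tool are not given in the sources used here. In each library 100% of the deposited values were whole multiples of 1 unit (within 1e-06), and the factors recovered equalled DESeq2's size factors within 2.89e-15, so each value is a number of reads over its library's factor. This does not correct for composition or gene length.

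Genes with a mean of at least 10 (12455) entered limma 3.58.1 (R 4.3.3) as log2 of the value plus a pseudocount of 1: 1 mean per group, 6 residual degrees of freedom, empirical Bayes with a mean-variance trend, 7 contrasts, Benjamini-Hochberg adjustment over all genes, threshold 0.05. Fold changes are on that log scale and understate changes of low genes. edgeR 4.0.16 and DESeq2 1.42.0 on recovered reads were alternatives, with other pseudocounts, filters, scalings, weights, samples and blocks. The fit was also run on simulated counts with the same spread setting for every gene and no library standing apart. That run does not cover the spread between these replicates. Replicates differed beyond sampling noise (chi-square per degree of freedom of at least 7.56).

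Levels per kb use the union of exons in GENCODE M21 (GRCm38), which also gave positions and exon overlap; shared sequence was found with blastn 2.17.0 on transcripts. Promoters are RefSeq's (GRCm38.p6) and matched 7 of 8 members. The 8 members and the lists were chosen with earlier results of these data known. Beside the members, the text names listed genes that passed in any contrast, up to 6 per list by smallest p, and the 3 tested genes most correlated with each member.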

Additional observations from a re-analysis of the deposited data

How the results depend on the processing

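Over 56 pairs of a member and a comparison, 1216 values under alternatives were compared with those reported: 1187 stayed on the same side of the threshold, 16 fell below it, 13 rose above it and 0 called values changed sign, while 60 values that passed in neither fit did change sign. Fcgr2b over both conditions passed throughout; Fcgr4 passed in 18 of 21 and Fcgr3 in 14 of 21. Of 722 values of 22 other named genes, 532 kept the call, 190 lost it and 0 reversed.

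The cause of the following moves was not tested. Members called in unconfined cells (0) became 1 with DESeq2, array weights or only the 2 groups compared, and 0 to 1 leaving out 1 library. Members called in confined cells (2) became 0 with no mean-variance trend and 1 with only the 2 groups compared, and 1 to 3 leaving out 1 library. Members called over both conditions (3) became 1 with no trend, and 1 to 4 leaving out 1 library. Calls among all genes moved as well. With only the 2 groups compared these were 189 in unconfined (18 as reported) and 90 in confined cells (322). For confinement they were 455 in WT (144) and 33 in WKO (214).

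Other listed genes called in unconfined cells (0) became 3 with DESeq2 and 4 with array weights or only the 2 groups (0 to 3 leaving out 1 library). In confined cells (7) they became 4 with no filter, 18 with DESeq2, 1 with no trend or only the 2 groups, and 31 with array weights (1 to 14). For confinement in WT (1) they became 2 with a mean of at least 50, 0 with edgeR or no trend, and 5 with DESeq2, array weights or only the 2 groups (0 to 6). For confinement in WKO (2) they became 1 with no filter, 0 with no trend or only the 2 groups, and 12 with array weights (0 to 7). For genotype over both conditions (13) they became 8 with no filter, 23 with DESeq2, 6 with no trend and 27 with array weights (4 to 23). For confinement over both genotypes (7) they became 13 with DESeq2, 3 with no trend and 20 with array weights (2 to 17). Calls among all genes with DESeq2, array weights and no trend were 179, 166 and 4 in unconfined cells (18 as reported). In confined cells they were 775, 1948 and 53 (322). For confinement they were 333, 419 and 20 in WT (144) and 486, 1735 and 45 in WKO (214). Over both genotypes they were 1219, 2220 and 424 (773), and for genotype over both conditions 1147, 1804 and 360 (694).

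The labels do not say that a number marks a shared mouse. Deviations from the group mean of same-numbered unconfined WT and WKO libraries correlated at r = 0.03. With 2 libraries per group, both replicate numbers give this same value. Between conditions r was 0.006 for WKO replicate 1 and 0.009 for WT replicate 3, and between confined genotypes 0.08 for replicate 2. These values do not settle whether libraries share a mouse or batch, and WT and WKO libraries cannot come from the same mouse. With a replicate block 1 member (Fcgr2b, adjusted p = 1.33e-04 by limma) and 3 other listed genes passed in unconfined cells. With only the unconfined libraries in the fit 1 and 7 passed, and 2 listed genes passed for confinement in WT with the block. Among all 12455 genes the block called 245 in unconfined cells, 349 with only the unconfined libraries, and 216 for confinement in WT. Over all genes the calls ranged from 4 to 349 in unconfined cells (18 as reported), 53 to 1948 in confined cells (322), 20 to 455 for confinement in WT (144), 33 to 1735 for confinement in WKO (214), 360 to 1804 for genotype over both conditions (694) and 383 to 2220 for confinement over both genotypes (773), and leaving out 1 library from 4 to 141, 58 to 701, 22 to 397, 43 to 1043, 169 to 1115 and 288 to 1807. Members had 1066 or more reads per library, so depth did not limit their values.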
